A study of Mus musculus with 3 samples.

Results

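The 10 genes described here code for proteins that limit oxidative damage or move and store iron: Hmox1, Nqo1, Gclm, Gclc, Srxn1, Txnrd1, Slc7a11, Ftl1, Fth1 and Tfrc. They were taken from a list of symbols, and all 10 were found among the 32285 genes counted. Each had at least 1 UMI (unique molecular identifier, a count of a captured transcript) in the kept cells of all 3 libraries. NRF2, a transcription factor that KEAP1 marks for destruction until oxidants or electrophiles modify it, drives genes for glutathione synthesis, thioredoxin reduction, quinone reduction, heme breakdown and ferritin. Heme oxygenase frees iron from heme, ferritin stores iron in a shell of light and heavy chains, and the transferrin receptor takes iron into the cell. Iron regulatory proteins bind stem-loops in the ferritin and transferrin receptor messages when iron is scarce, holding back translation of ferritin and protecting the receptor message from decay.

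The mice were wild-type C57BL6J males aged 10 to 12 weeks, either untreated controls or animals taken 24 h or 3 d after a 5 min occlusion of the middle cerebral artery, the model of transient ischemic attack (TIA). Cells of 3 mice were pooled for each of the 3 libraries, so a condition and its library cannot be told apart. The sample labels call the control naive and the TIA groups post stroke. Hemispheres freed of meninges and white matter were digested with papain, and live cells (propidium iodide-negative) were sorted after a dead-cell depletion. The paper describes the tissue as cortical and the labels as brain.

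Cells with at least 500 genes and at most 7% mitochondrial UMIs were kept: 4018 of 4804 in control, 1225 of 1619 at 24 h and 4781 of 5505 at 3 d, with medians of 7750, 8123 and 7868 UMIs a cell. Clusters were named by their markers, and 6 classes had enough cells to compare: astrocyte-like (894, 239 and 1427 cells in control, 24 h and 3 d), endothelial-like (287, 229 and 591), microglia-like (974, 270 and 1212), neuroblast-like (795, 112 and 375; Dcx and Gad1 cells rather than mature neurons), oligodendrocyte-like (232, 72 and 250) and pericyte-like cells (159, 182 and 327), named for short by the cell type alone. Levels are UMIs of the gene scaled to a class sum of 1000000 (CPM), always in the order control, 24 h, 3 d. Since reads came from the 3′ end and were not divided by length, levels were compared between classes and times and not between genes. A ratio to control was called at 2-fold or more where the UMIs of both libraries reached 30 in sum. Its 95% interval covers counting error only, not differences between mice.

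Most of these genes stayed within 2-fold of control at both times. At 24 h, 44 of 60 gene and class pairs had at least 30 UMIs: 2 were higher, 2 lower and 40 within 2-fold, where over all genes 2.48% of 61403 pairs were higher and 5.31% lower. At 3 d, 46 of 60 pairs could be judged: 3 were higher, 0 lower and 43 within, against 2.87% higher and 1.15% lower of 68053 pairs over all genes. The 7 called ratios belonged to Hmox1 in astrocytes, to Slc7a11 in neuroblasts, oligodendrocytes and pericytes, and to Tfrc in pericytes. The remaining 16 pairs at 24 h and 14 at 3 d had under 30 UMIs and gave no call.

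By class, the members past 2-fold at 24 h were 1 of 10 in astrocytes (9.3% of all genes there), 0 of 6 in endothelial cells (6.05%), 0 of 8 in microglia (5.03%), 1 of 7 in neuroblasts (9.61%), 1 of 7 in oligodendrocytes (10.5%) and 1 of 6 in pericytes (5.42%). At 3 d they were 0 of 10 in astrocytes (2.68%), 0 of 6 in endothelial cells (4.49%), 0 of 8 in microglia (2.67%), 0 of 7 in neuroblasts (2.45%), 1 of 8 in oligodendrocytes (5.81%) and 2 of 7 in pericytes (7.54%). Over all members that could be judged, past 2-fold or not, 9 of 10 ratios in astrocytes at 24 h were above 0 (50.9% over all genes). Their median log2 ratio was 0.29 (0.01 over all genes). In microglia 6 of 8 were above 0, where the share over all genes was 56.5%, with a median of 0.42 (0.05 over all genes). In microglia without the chemokine-rich cluster, whose share of the class was 12.3% in control and 24.8% at 24 h, the median was 0.13. There 7 of 8 were above 0, Slc7a11 with a ratio of only 0.0008. Without the 1 astrocyte that held most Hmox1, 8 of 10 were above 0. The other class medians at 24 h lay between -0.18 and 0.02. At 3 d the medians were 0.31 in pericytes, 0.15 in oligodendrocytes, 0.13 in endothelial cells, 0.08 in microglia, -0.05 in astrocytes and -0.06 in neuroblasts (0.03 to 0.06 over all genes). Scaling by the median gene ratio turned Gclm in microglia at 24 h from 0.00 to -0.05, so that 5 of the 8 were above 0.

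**Figure D1:**
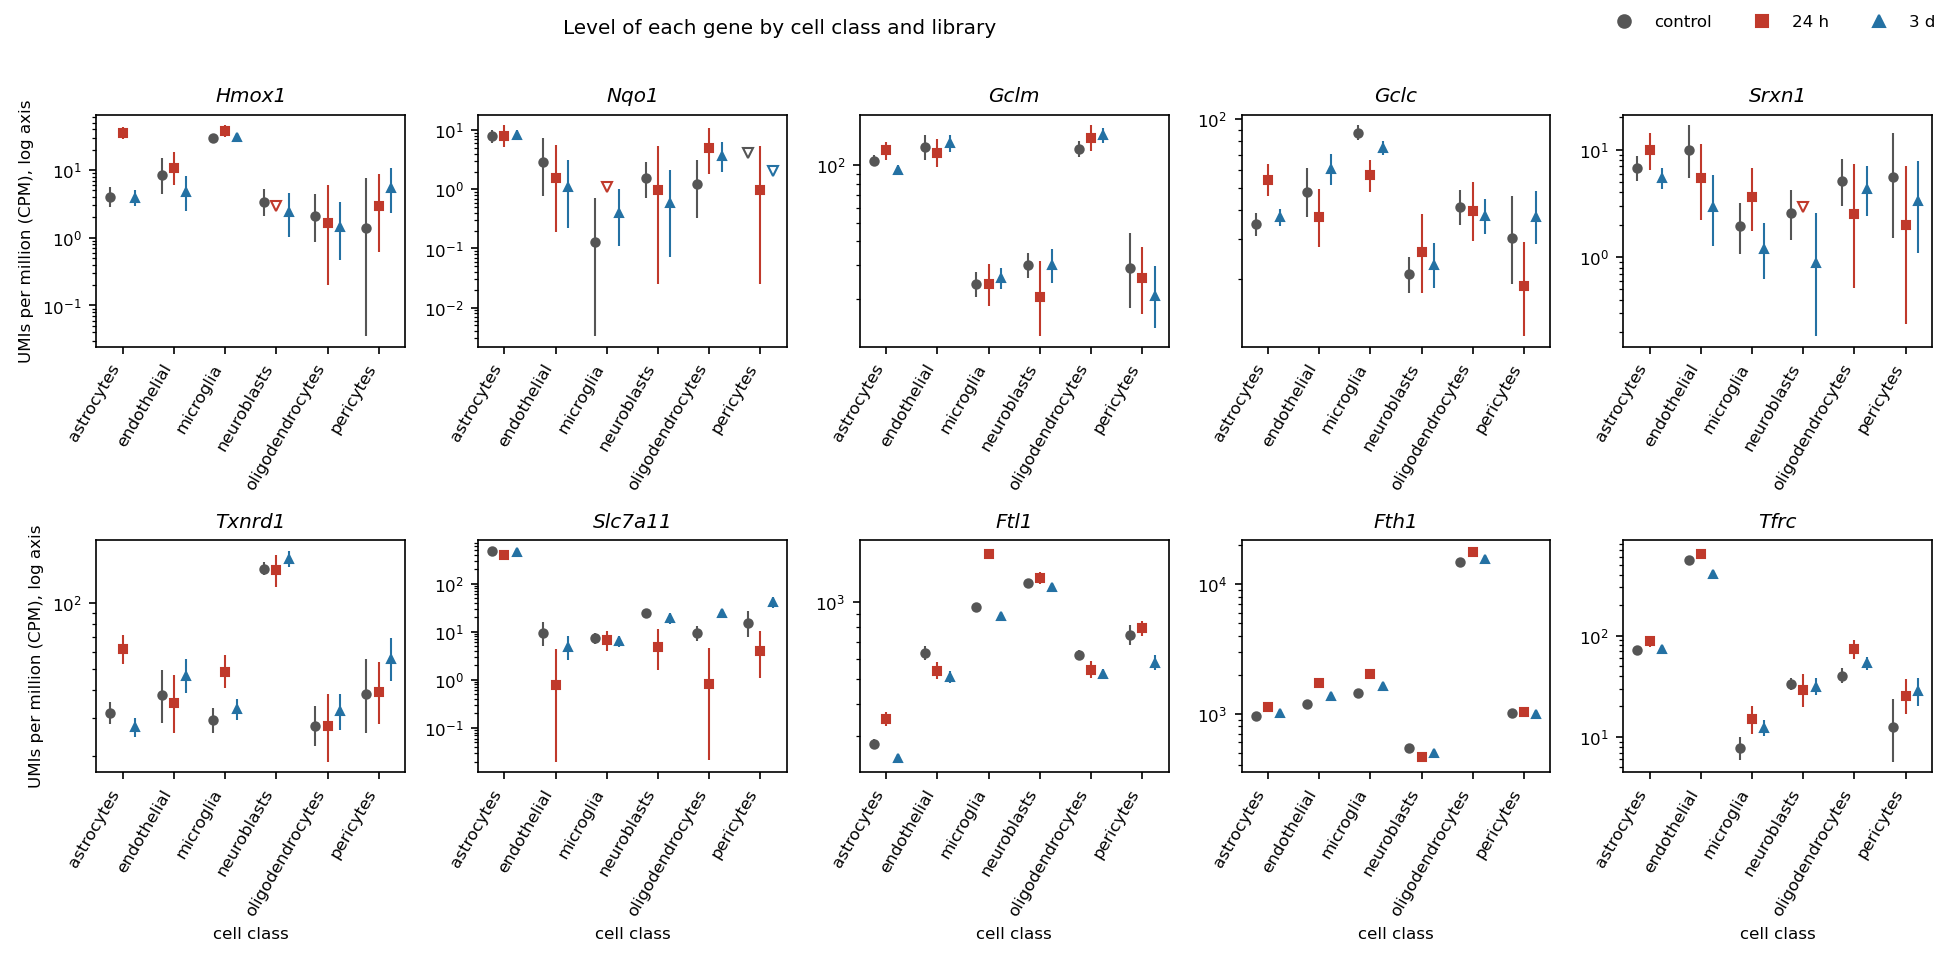
Level of each of the 10 genes in 6 cell classes of the control, 24 h and 3 d libraries, in CPM on a log axis with 95% Poisson intervals. Open triangles mark the level of 3 UMIs where the class had 0.

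Among the 6 classes, the message for heme breakdown was most abundant in microglia. Hmox1, which codes for the inducible heme oxygenase, measured 29.5, 37.8 and 30.6 CPM in microglia (229, 103 and 306 UMIs), and microglia held 54.5%, 36.7% and 56.2% of its UMIs among all kept cells. The control level in microglia was 3.42-fold that of endothelial cells, with intervals apart, while the other 5 classes overlapped from one to the next. In microglia the log2 ratio was 0.36 (0.01 to 0.70) at 24 h and 0.05 (-0.20 to 0.31) at 3 d. The main microglia cluster alone had a 24 h ratio of 0.16 (-0.28 to 0.58) and the chemokine-rich cluster 0.67 (-0.03 to 1.38). Of the microglia 14.4%, 19.3% and 15.6% had a Hmox1 UMI, and 3.95%, 5.62% and 5.32% of 962, 267 and 1204 did after thinning to 2000 UMIs a cell, for which cells with fewer UMIs were left out here and for the other genes. Neuroblasts, with 20, 0 and 8 Hmox1 UMIs, gave 1.76%, 0 and 1.87% before thinning at median depths of 7133, 8700 and 8305 UMIs, beside 7785, 9338 and 7666 in microglia. Endothelial cells had 12, 14 and 13 Hmox1 UMIs, oligodendrocytes 7, 2 and 5, and pericytes 1, 3 and 8, all too few for a call.

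In astrocytes Hmox1 passed the fold at 24 h, and 1 cell made the difference. The class went from 4.05 to 35.5 CPM and back to 3.89 (36, 101 and 55 UMIs), with log2 ratios of 3.13 (2.57 to 3.72) and -0.06 (-0.69 to 0.59). A single astrocyte of the 239 at 24 h, picked out after its values were seen, carried 84 of the 101 UMIs; without it the class had 17 UMIs, 6.002 CPM and a log2 ratio of 0.57. No other kept cell of the 10024 had more than 16 Hmox1 UMIs. The same cell also had the most Txnrd1 (65 of 176 class UMIs), Gclm (27 of 340) and Srxn1 (11 of 28) UMIs of all kept cells, together with 14 of Slc7a11, but 0 of Nqo1. It held 13119 UMIs and 3678 genes, was not called a doublet, and belonged to the larger 24 h astrocyte cluster. Whether more such cells occur in other mice was not tested.

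**Figure D2:**
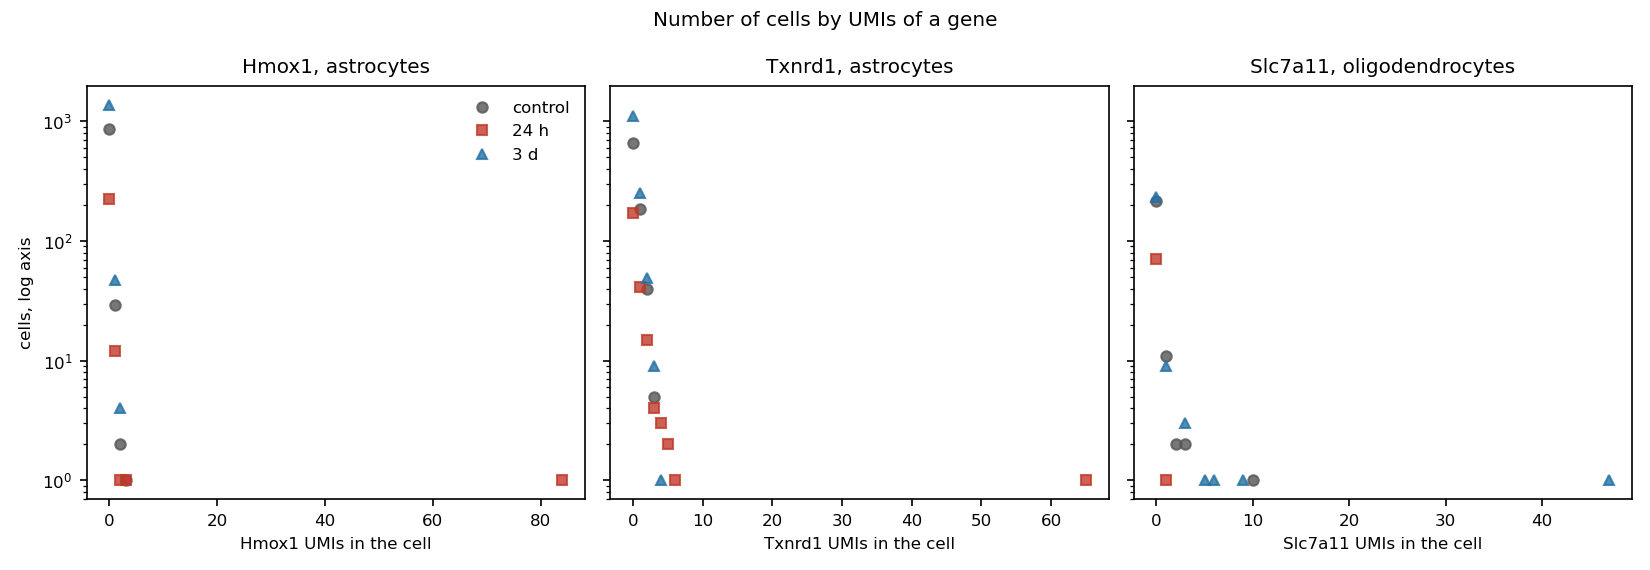
Number of cells (log axis) by UMIs of Hmox1 and Txnrd1 in astrocytes and of Slc7a11 in oligodendrocytes, for the control, 24 h and 3 d libraries. The points at the far right are 1 astrocyte at 24 h and 1 oligodendrocyte at 3 d.

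Nqo1, which codes for a quinone reductase, was scarce, and astrocytes had the highest level of the 6 classes in each library, with no call at either time. Astrocytes measured 7.87, 8.08 and 8.42 CPM (70, 23 and 119 UMIs), with log2 ratios of 0.04 (-0.71 to 0.74) and 0.10 (-0.34 to 0.55), and held 67.3%, 44.2% and 71.7% of the Nqo1 UMIs of all kept cells. Microglia, the class with most Hmox1, had 1, 0 and 4 Nqo1 UMIs and pericytes 0, 1 and 0. A count of 0 lies under the floor of 3 UMIs, which is 4.15 CPM in control pericytes. Endothelial cells (4, 2 and 3 UMIs), neuroblasts (9, 1 and 2) and oligodendrocytes (4, 6 and 13) had too few for a call. The astrocyte and endothelial intervals overlapped in control.

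The enzyme that starts glutathione synthesis has a catalytic and a modifier subunit, and the order of the classes differed between the messages of the 2 subunits. Gclm, the modifier, was highest in endothelial cells (124, 116 and 130.3 CPM; 173, 149 and 357 UMIs), oligodendrocytes (122, 139 and 144; 401, 167 and 501 UMIs) and astrocytes (106, 119.5 and 94.8; 940, 340 and 1339 UMIs), whose control intervals overlapped. The lowest of them, astrocytes, stood 3.53-fold above neuroblasts with intervals apart. The lower group was made up of neuroblasts (29.9, 20.6 and 29.9; 175, 21 and 101 UMIs), pericytes (29.0, 25.6 and 20.8; 21, 26 and 31 UMIs) and microglia (23.8, 23.8 and 25.7; 185, 65 and 257 UMIs). No Gclm ratio passed the fold (in neuroblasts at 24 h, on 21 UMIs, it did at -1.41 without the 5 top cells): at 24 h they ran from -0.54 (-1.27 to 0.12) in neuroblasts to 0.19 (-0.08 to 0.45) in oligodendrocytes, and at 3 d from -0.48 (-1.33 to 0.39) in pericytes to 0.24 (0.05 to 0.43) in oligodendrocytes. The astrocyte ratio of 0.18 at 24 h was 0.07 without the cell rich in Hmox1, and its 3 d ratio was -0.16 (-0.28 to -0.03).

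Gclc, the catalytic subunit, moved in opposite directions in microglia and astrocytes at 24 h, both within 2-fold. Microglia, highest in control by 1.81-fold with intervals apart, measured 87.3, 56.8 and 74.8 CPM (678, 155 and 749 UMIs), with log2 ratios of -0.62 (-0.88 to -0.36) and -0.22 (-0.37 to -0.07). Astrocytes measured 34.8, 54.5 and 37.3 CPM (310, 155 and 527 UMIs), with ratios of 0.64 (0.36 to 0.93) and 0.10 (-0.11 to 0.31). The 24 h values thus brought the classes together, and their intervals overlapped there. With cells thinned to 2000 UMIs, 15.4%, 7.49% and 11.9% of microglia had a Gclc UMI, the same order as the CPM. In the main microglia cluster alone the 24 h ratio was -0.64 and in the chemokine-rich cluster -0.71, and in the main astrocyte clusters 0.82 and 0.46. Endothelial cells measured 48.1, 37.4 and 60.6 CPM (67, 48 and 166 UMIs; ratios -0.36 and 0.33), oligodendrocytes 41.3, 40.0 and 37.9 (136, 48 and 132 UMIs; -0.05 and -0.12), pericytes 30.4, 18.7 and 37.6 (22, 19 and 56 UMIs; -0.70 and 0.31) and neuroblasts 21.02, 26.4 and 23.1 (123, 27 and 78 UMIs; 0.33 and 0.13).

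The message for cystine import, which feeds glutathione synthesis, was found mainly in astrocytes before and after TIA. Slc7a11, the exchanger subunit that brings cystine in, measured 464, 388 and 450.4 CPM in astrocytes (4128, 1103 and 6364 UMIs), 18.9-fold above neuroblasts in control with intervals apart. Without called doublets the control level was 65.9-fold that of the next class, pericytes, which held only 5 UMIs (7.25 CPM). Microglia then measured 7.03 CPM on 54 UMIs. Astrocytes held 85.6%, 94.5% and 87.8% of its UMIs, and their log2 ratios were -0.26 (-0.36 to -0.16) and -0.04 (-0.10 to 0.01). A Slc7a11 UMI was found in 86.7%, 79.9% and 83.8% of astrocytes (medians of 9334, 11495 and 9307 UMIs) and in 5.13%, 5.56% and 4.37% of microglia (7785, 9338 and 7666). After thinning to 2000 UMIs, 51.3%, 50.4% and 50.5% of astrocytes had one.

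Outside astrocytes Slc7a11 gave 4 of the 7 called ratios, and most of the UMIs behind them sat in cells that were called doublets. Oligodendrocytes measured 9.42, 0.832 and 24.4 CPM (31, 1 and 85 UMIs), with log2 ratios of -3.50 (-8.85 to -0.92) at 24 h and 1.37 (0.77 to 2.02) at 3 d. Of those UMIs 19 of 31 in control and 77 of 85 at 3 d were in called doublets, 47 of them in 1 cell. Without called doublets the class held 12, 1 and 8 UMIs, and no ratio could be called. Pericytes measured 15.2, 3.94 and 40.9 CPM (11, 4 and 61 UMIs; 1.43, 0.49 to 2.51, at 3 d, and too few UMIs at 24 h), and 49 of the 61 UMIs at 3 d were in called doublets, leaving 5, 4 and 12 UMIs without them. Neuroblasts measured 24.6, 4.89 and 18.9 CPM (144, 5 and 64 UMIs), with ratios of -2.33 (-3.98 to -1.07) and -0.38 (-0.83 to 0.06). There, 109 of 144 control UMIs and 45 of 64 at 3 d were in called doublets, and without them the levels were 6.65, 4.89 and 6.15 CPM and the 24 h ratio -0.44.

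The libraries differed in called doublets and in astrocyte transcripts within these same classes. Doublets were called for 3.04% of control, 0.490% of 24 h and 2.93% of 3 d cells. The 10 astrocyte markers summed to 470, 222 and 733 CPM in oligodendrocytes (10, 9 and 10 of 10 found; Aqp4 at 0 at 24 h; Slc1a2, Slc1a3 and Slc1a3 the most abundant). In pericytes they summed to 794.5, 168 and 1903 CPM (10, 7 and 10 of 10 found; Aqp4, Gjb6 and Acsbg1 at 0 at 24 h; Slc1a2 the most abundant) and in neuroblasts to 1187, 616 and 1263 CPM (10 of 10 found in each; Slc1a2, Slc4a4 and Slc1a2). Slc7a11 and the astrocyte markers were lowest in the same library, that of 24 h, in each of these classes. The oligodendrocyte with 47 Slc7a11 UMIs, picked out after its values were seen, had only 22 astrocyte marker UMIs, against 182 of microglia and 370 of oligodendrocytes. The part of astrocyte transcripts in the ratios was not tested beyond leaving out the called doublets. Leaving cells out by the literal wording of the filter turned the pericyte ratio at 3 d to -1.61. Microglia (57, 18 and 63 UMIs; 7.33, 6.60 and 6.29 CPM) had ratios of -0.15 and -0.22, and endothelial cells (13, 1 and 13 UMIs) no call.

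**Figure D3:**
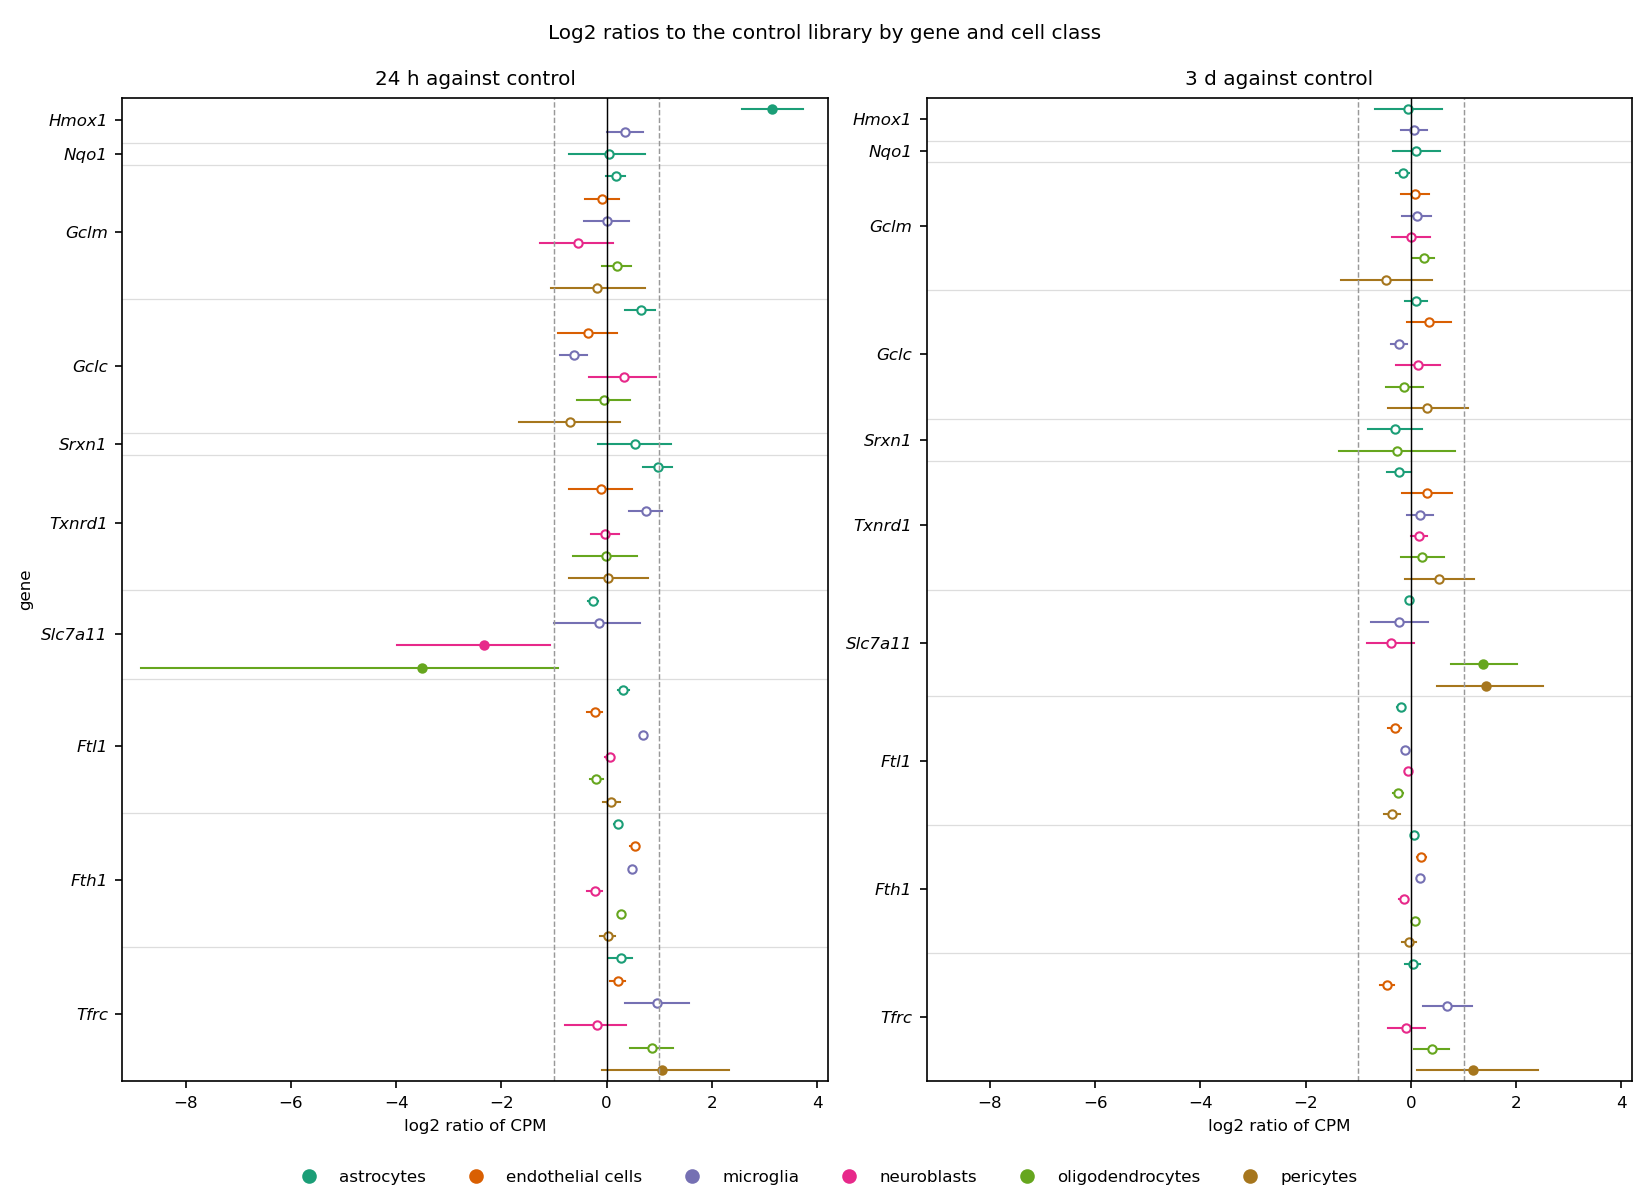
Log2 ratio of CPM to the control library for gene and class pairs with at least 30 UMIs at 24 h and 3 d, with 95% intervals of counting error. Filled points are at least 2-fold, and dashed lines mark 2-fold.

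In each library the message for thioredoxin reductase was, of the classes compared, most abundant in neuroblasts. Txnrd1, which keeps thioredoxin reduced, measured 143, 141 and 159 CPM there (839, 144 and 538 UMIs), 3.71-fold above the next class in control with intervals apart, and log2 ratios were -0.02 (-0.29 to 0.23) and 0.15 (-0.01 to 0.31). Dividing progenitors, which had too few cells at 24 h to compare, measured 184, 185 and 203 CPM. The other 5 classes overlapped from one to the next in control, at 27.6 to 38.7 CPM.

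At 24 h the CPM of Txnrd1 was above control in astrocytes and microglia, within 2-fold. Microglia measured 29.2, 48.8 and 32.8 CPM (227, 133 and 328 UMIs), with ratios of 0.74 (0.42 to 1.06) and 0.17 (-0.08 to 0.42). At 24 h the main microglia cluster alone had a ratio of 0.47 (0.05 to 0.88) and the chemokine-rich cluster 0.72 (0.15 to 1.29). After thinning to 2000 UMIs a cell, 5.41%, 5.62% and 6.31% of microglia had a Txnrd1 UMI, almost the same share in control and at 24 h (19.1%, 30.7% and 21.5% before thinning). Astrocytes measured 31.6, 61.9 and 27.1 CPM (281, 176 and 383 UMIs), with ratios of 0.97 (0.69 to 1.25) and -0.22 (-0.45 to 0.01). Without the 1 astrocyte rich in Hmox1 the 24 h value was 39.2 CPM and the ratio 0.31, so that cell decided most of the astrocyte value and none of the microglial one. The astrocyte cluster that held that cell had a 24 h ratio of 1.56 (1.19 to 1.93). The other main cluster had -0.34 (-0.98 to 0.25), and the smallest, on 3 UMIs at 24 h, -0.74. With that cell kept and called doublets left out, the astrocyte ratio was 1.01, past the fold. Pericytes measured 38.7, 39.4 and 55.7 CPM (28, 40 and 83 UMIs; ratios 0.03 and 0.53), endothelial cells 38.0, 35.1 and 46.7 (53, 45 and 128 UMIs; -0.12 and 0.30) and oligodendrocytes 27.6, 27.5 and 32.2 (91, 33 and 112 UMIs; -0.01 and 0.22). Scaling by the median gene ratio turned the 24 h signs in neuroblasts and oligodendrocytes to 0.02.

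Srxn1, which restores peroxiredoxins that oxidants have overoxidised, was rare, with 147, 66 and 142 UMIs in all kept cells. In control, astrocytes (6.74 CPM) and endothelial cells (10.0) lay clear of microglia (1.93) and neuroblasts (2.56), while classes next to each other in level overlapped. Astrocytes measured 6.74, 9.84 and 5.45 CPM (60, 28 and 77 UMIs), with ratios of 0.55 (-0.16 to 1.22) and -0.31 (-0.81 to 0.20), and the 24 h ratio was -0.17 without the cell rich in Hmox1. Oligodendrocytes (17, 3 and 15 UMIs) had a ratio of -0.26 (-1.37 to 0.83) at 3 d. Endothelial cells (14, 7 and 8 UMIs), microglia (15, 10 and 12), neuroblasts (15, 0 and 3) and pericytes (4, 2 and 5) gave no call.

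The ferritin chains divided the classes in contrasting ways. Fth1, the heavy chain that oxidises iron for storage, was an oligodendrocyte message: 14850, 17920 and 15630 CPM (48875, 21531 and 54436 UMIs), 10.3-fold above the next class in control with intervals apart. Oligodendrocytes held 58.6%, 58.2% and 51.3% of all Fth1 UMIs, though they made up 232 of 4018, 72 of 1225 and 250 of 4781 cells. Microglia measured 1448, 2031 and 1634 CPM, endothelial cells 1199, 1730 and 1372, pericytes 1020, 1033 and 993, astrocytes 968, 1118 and 1008, and neuroblasts 543, 466 and 494, in that control order with only pericytes and astrocytes overlapping. The UMIs were 11254, 5538 and 16354 in microglia, 1671, 2218 and 3757 in endothelial cells, 738, 1048 and 1480 in pericytes, 8613, 3180 and 14235 in astrocytes, and 3179, 476 and 1669 in neuroblasts.

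No Fth1 ratio passed 2-fold, yet at 24 h several intervals lay well clear of 0. The 24 h log2 ratios were 0.53 (0.44 to 0.62) in endothelial cells, 0.49 (0.44 to 0.53) in microglia, 0.27 (0.25 to 0.29) in oligodendrocytes, 0.21 (0.15 to 0.27) in astrocytes, 0.02 (-0.12 to 0.16) in pericytes and -0.22 (-0.36 to -0.08) in neuroblasts. By 3 d they were 0.19, 0.17, 0.07, 0.06, -0.04 and -0.14 in the same order, all closer to 0 than at 24 h except in pericytes. The endothelial ratios depended on the clustering. With the members and the listed pathway genes left out of the variable genes, they were -0.05 at 24 h and -0.39 at 3 d.

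Ftl1, the light chain that helps the iron core form, was highest in neuroblasts and microglia and lowest in astrocytes. Neuroblasts measured 1187, 1237 and 1138 CPM (6948, 1264 and 3846 UMIs), microglia 953, 1535 and 881 (7403, 4186 and 8819), pericytes 743, 788 and 579.8 (538, 800 and 864), endothelial cells 632, 539.8 and 511 (881, 692 and 1399), oligodendrocytes 623, 544 and 524 (2050, 654 and 1825) and astrocytes 279.5, 349 and 246 (2487, 992 and 3476). In control only endothelial cells and oligodendrocytes overlapped. Oligodendrocytes had 23.8, 32.9 and 29.8 Fth1 UMIs for each Ftl1 UMI and neuroblasts 0.458, 0.377 and 0.434, the ends of the range in all 3 libraries.

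Microglial Ftl1 had the highest 24 h ratio of the ferritin chains, at 0.69 (0.63 to 0.74), and was -0.11 (-0.16 to -0.07) at 3 d. The 5 top cells held 2.69%, 15.7% and 2.52% of the UMIs, and without the 5 top cells the 24 h ratio was 0.54. After thinning, 81.0%, 80.9% and 75.3% of microglia had an Ftl1 UMI. The 24 h difference lay mainly in 1 of the 2 microglia clusters, both looked at after their values were seen. The cluster led by Cxcl10, Ccl12, Tnf and Ccl2 made up 12.3%, 24.8% and 25.2% of microglia and measured 1539, 2843 and 1143 CPM, a 24 h ratio of 0.89 (0.80 to 0.98). The other cluster measured 861, 922 and 774 CPM, a ratio of 0.10 (0.02 to 0.18), which is also the microglial ratio without the chemokine cluster. Fth1 ran alongside, with 2011, 3001 and 2069 CPM in the chemokine cluster (0.58) and 1360, 1577 and 1456 in the other (0.21). Markers of border-associated macrophages summed to 186, 253 and 208 CPM in microglia (9, 4 and 9 of 9 found; Stab1 the most abundant; F13a1, Ms4a7, Cbr2, Cd163 and Clec12a at 0 at 24 h), and their part in the ferritin values was not tested.

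In the other classes Ftl1 stayed within 2-fold, and at 3 d it was below control in all 6. The 24 h ratios were 0.32 (0.21 to 0.43) in astrocytes, 0.08 (-0.07 to 0.25) in pericytes, 0.06 (-0.03 to 0.15) in neuroblasts, -0.19 (-0.32 to -0.07) in oligodendrocytes and -0.23 (-0.37 to -0.08) in endothelial cells. The 3 d ratios were -0.18, -0.36, -0.06, -0.25 and -0.31 in the same order, and all 6 stayed below 0 with median ratio scaling. A processed copy, Ftl1-ps1, had 184, 82 and 179 UMIs beside 27359, 11074 and 28976 for Ftl1, or 0.153% to 1.28% of both by class and library; reads that fit both copies equally well are not counted, so the Ftl1 level is uncertain by an unknown amount.

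The message for iron uptake from transferrin was most abundant in endothelial cells. Tfrc, the transferrin receptor, measured 555, 643 and 402 CPM in endothelial cells (773, 824 and 1102 UMIs), 7.60-fold above astrocytes in control with intervals apart, with log2 ratios of 0.21 (0.07 to 0.36) at 24 h and -0.46 (-0.60 to -0.33) at 3 d. Endothelial cells with a Tfrc UMI made up 71.4%, 73.8% and 60.9% of the class, and 53.7%, 57.0% and 46.1% after thinning; in microglia, which are deeper (7785, 9338 and 7666 UMIs against 4643, 5690 and 4263), 5.34%, 9.26% and 8.42% had one. Over all kept cells Tfrc went from 59.0 to 112 CPM at 24 h, while endothelial cells made up 229 of 1225 cells there and 287 of 4018 in control. No class with over 100 Tfrc UMIs reached 2-fold.

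Outside the endothelium Tfrc was above control in several classes. Pericytes passed the fold at both times, at 12.4, 25.6 and 28.2 CPM on 9, 26 and 42 UMIs, with ratios of 1.04 (-0.10 to 2.32) and 1.18 (0.12 to 2.41); without called doublets they were 0.97 and 0.89. After thinning to 2000 UMIs, 3.87%, 3.43% and 3.93% of 155, 175 and 305 pericytes (6, 6 and 12 cells) had a Tfrc UMI, against 5.66%, 12.1% and 10.1% before thinning. The 11 endothelial markers in pericytes summed to 242, 259 and 279 CPM (10, 10 and 11 of 11 found; Flt1 the most abundant; Cdh5 at 0 in control and at 24 h). The astrocyte markers there, given above, were lowest at 24 h and highest at 3 d. At 3 d the pericyte with most Tfrc (5 UMIs) was a called doublet with 354 astrocyte marker UMIs and 2 endothelial ones. The part of either marker set in the pericyte value was not tested beyond leaving out the called doublets. Microglia measured 7.72, 15.0 and 12.4 CPM (60, 41 and 124 UMIs), with ratios of 0.96 (0.35 to 1.56) and 0.68 (0.23 to 1.15). The main microglia cluster alone had ratios of 0.59 (-0.24 to 1.37) and 0.34 (-0.23 to 0.91). The chemokine-rich cluster, a larger share of microglia at both times than in control, had 1.08 (-0.01 to 2.24) and 0.85 (-0.05 to 1.89). Oligodendrocytes, rich in ferritin heavy chain, measured 40.4, 73.2 and 53.1 CPM (133, 88 and 185 UMIs), with ratios of 0.86 (0.45 to 1.26) and 0.39 (0.07 to 0.73). Astrocytes measured 72.9, 87.9 and 74.7 CPM (649, 250 and 1055 UMIs; 0.27 and 0.03) and neuroblasts 33.3, 29.4 and 31.4 (195, 30 and 106 UMIs; -0.18 and -0.09). Intervals of oligodendrocytes and neuroblasts overlapped in control, as did those of pericytes and microglia.

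Erythrocyte transcripts were scarcer in the 24 h library. The 5 erythrocyte markers summed to 812, 23.9 and 669 CPM in astrocytes, 1281, 20.2 and 106 in microglia, 6566, 14.2 and 4817 in oligodendrocytes and 163, 52.2 and 7960 in pericytes. Their part in the Hmox1, ferritin and Tfrc values was not tested.

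The ferritin and transferrin receptor messages carry the elements through which iron regulatory proteins act, and these are printed because no other member had one. The search looked in annotated untranslated regions for a bulged C, a 5-base stem, the loop CAGTGN and the 5 bases that pair with the stem; capitals mark the loop. Ftl1 and Fth1 each had 1 in the 5′ region, where 0.148% of 20916 genes did, and Tfrc had 4 in the 3′ region, where 0.594% of 21707 genes had any and 4 was the most in a gene. The elements lie at chr7:45459785-45459801 (minus strand), chr19:9982738-9982754 (plus) and, for Tfrc, chr16:32631225-32631241, chr16:32631604-32631620, chr16:32631669-32631685 and chr16:32631716-32631732 (plus), in GRCm38 with GENCODE M21. A match is a description of the sequence only. At 24 h Ftl1 was above control in 4, Fth1 in 5 and Tfrc in 5 of 6 classes, and at 3 d in 0, 4 and 4 (3 for Tfrc with median ratio scaling, where astrocytes turned from 0.03 to -0.01). Over all genes, 45.2% to 56.5% by class were above control at 24 h and 54.3% to 60.85% at 3 d. Some counted ratios had intervals across 0, such as Fth1 in pericytes at 24 h (0.02, -0.12 to 0.16). Whether the elements bear on these values was not tested.
Ftl1 5′ element: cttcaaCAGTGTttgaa
Fth1 5′ element: cttcaaCAGTGCttgaa
Tfrc 3′ element A: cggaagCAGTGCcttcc
Tfrc 3′ element B: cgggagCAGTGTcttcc
Tfrc 3′ element C: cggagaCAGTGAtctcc
Tfrc 3′ element D: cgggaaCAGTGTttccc

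The antioxidant response element, to which NRF2 binds with small MAF proteins, was sought as TGACNNNGC on both strands from 250 bases before to 50 bases after each annotated start site of the RefSeq GRCm38.p6 promoters. Of the 8 members with a window, Gclm, Srxn1 and Txnrd1 had a match (3 of 8), against 14.0% of 27025 genes and 12.4% of 32851 windows. The members were chosen as antioxidant and iron genes, so the shares carry no test. The stretches of these 3 genes are shown as a description of the sequence only. Whether NRF2 acted on them in any cell was not tested. Capitals mark the match, which lies on the minus strand and is printed as its complement on the plus strand. Hmox1 and Gclc had no window, and Nqo1, Slc7a11, Ftl1, Fth1 and Tfrc no match. The matches lie 134 bases before the start site in Gclm (chr3:122245413-122245441), 29 after it in Srxn1 (chr2:152105542-152105570) and 92 before it in 1 of the 3 windows of Txnrd1 (chr10:82859104-82859132).
Gclm promoter: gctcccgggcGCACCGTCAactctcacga
Srxn1 promoter: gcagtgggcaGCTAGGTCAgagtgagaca
Txnrd1 promoter: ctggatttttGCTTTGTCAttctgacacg

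Each member had genes that ran alike over the 18 class and library sums, out of 15229 genes with at least 100 UMIs. The closest were Prkcd for Hmox1 (Pearson r 0.91), Mt1 for Nqo1 (0.94), Fam189a2 for Gclm (0.97), Zcchc2 for Gclc (0.90), Emc2 for Srxn1 (0.84), Btf3l4 for Txnrd1 (0.96), Gm20713 for Slc7a11 (0.99), Trmt112 for Ftl1 (0.94), Secisbp2l for Fth1 (0.98) and Stard4 for Tfrc (0.96). Among the members themselves, Gclm and Tfrc (0.75) and Hmox1 and Gclc (0.74) ran closest, and Gclm and Gclc, the subunits of 1 enzyme, had an r of 0.17. These values describe class levels and carry no test.

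In the GRCm38 annotation other genes overlap Gclm, Txnrd1, Slc7a11 and Ftl1, so UMIs of those 4 may in part be assigned by strand and exon choice. Whether intron reads were counted is not given in the sources used here.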

How the data were processed

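Single-cell 3′ RNA of 3 libraries (control, 24 h and 3 d after TIA; 3 mice pooled in each) was analysed. The deposited values are UMI counts that the authors produced with Cell Ranger (7.1.0 per the matrix header and methods, 3.1.0 per the processing notes), aligned to mm10 with GENCODE vM23. Cells were filtered and clustered with Seurat 5.3.0 in R 4.3.3 (2000 variable genes, depth and mitochondrial share regressed, 20 components, resolution 0.5, 14 clusters). Clusters were named by marker lists, and the naming thresholds were chosen once the clusters were known. Classes with under 50 cells in a library, and clusters with markers of several types or few of any, were left out. The genes and lists were chosen with earlier results of these data known. UMIs were summed by class and library with numpy 2.4.6, scipy 1.17.1 and pandas 2.3.3; ratios had exact binomial and levels exact Poisson intervals, and a count of 0 was set to 3 UMIs. With 1 library for each condition no test was made. Both TIA libraries share the 1 control library. All 10 genes are named; other genes are the closest in level or, from the lists, those with the largest ratios on at least 100 UMIs, apart from genes marked as picked after their values were seen. Doublets called by Scrublet in scanpy 1.11.5 were kept, and left out as an alternative. Other alternatives changed the filter, scaling, minimum, fold, clustering and cells used. The ratio was checked on simulated counts. Libraries shared 3 (control and 24 h), 8 (control and 3 d) and 4 (24 h and 3 d) cell barcodes, of which 2, 7 and 2 passed the filter.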

Additional observations from a re-analysis of the deposited data

Results flagged for a closer look

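Slc7a11 in oligodendrocytes differed from control in opposite directions at the 2 times, with a log2 ratio of -3.50 at 24 h and 1.37 at 3 d, each from 1 library. The UMIs were 31 in control, 1 at 24 h and 85 at 3 d, and 19, 0 and 77 of them were in called doublets. The difference between the times was not tested.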

How the results depend on the processing

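The counts of members past 2-fold were 2 higher and 2 lower at 24 h. At 3 d they were 3 higher and 0 lower. Each of the 10 genes had a highest class in control. The counts past 2-fold were equal with median ratio scaling, resolution 1 and, among alternatives chosen after seeing the data, with the unnamed clusters that carry microglia markers added to microglia or with the chemokine cluster left out. The highest classes were the same with resolution 1 and with the unnamed clusters added, and were not compared with median ratio scaling or without the chemokine cluster. Resolution 0.2 gave 3 lower at 24 h and the same highest class for 9 genes. Counts of other settings that are not named stayed within 1.5 times these. A minimum of 10 UMIs gave 5 lower at 24 h and 3 lower at 3 d; a minimum of 100 gave 1 higher and 1 lower at 24 h and 1 higher at 3 d; a fold of 1.5 gave 8 higher and 4 lower at 24 h. These follow from the settings themselves. The literal cell filter gave 1 higher at 24 h, 0 higher and 1 lower at 3 d, and reversed Slc7a11 in pericytes at 3 d to -1.61. Without called doublets 0 were lower at 24 h and 0 higher at 3 d. Clustering without regression gave 1 higher at each time, and with the listed genes out of the variable features 1 was higher at 24 h and 1 lower at 3 d. Cells with few markers of other classes gave 7 higher and 0 lower at 24 h, 1 higher at 3 d and the same highest class for 6 of 10 genes; this setting kept 6 astrocytes at 24 h and no oligodendrocytes at 3 d, which therefore had no value. The mean of per-cell CPM gave 1 higher at 3 d, leaving out the 5 top cells of each gene gave 0 higher at 24 h and 1 at 3 d, and leaving out the astrocyte with most Hmox1, also chosen after seeing the data, gave 1 higher at 24 h. Some settings also gained a call at 24 h: Txnrd1 in astrocytes without called doublets (1.01, where Tfrc in pericytes was lost), Gclm in neuroblasts without the 5 top cells (-1.41) and Srxn1 in astrocytes by the mean of per-cell CPM (1.04). Where a setting itself does not show it, the cause was not tested. Of 90 ratios, 54 kept their sign wherever they had a value and 36 did not. Of the 7 called ratios, 1 stayed past 2-fold wherever it had a value, Slc7a11 in oligodendrocytes at 24 h. That ratio had no value without called doublets, with a minimum of 100 UMIs or without the 5 top cells. Cells with few markers of other classes gave none either. Of 1270 ratio values 1189 lay within the 95% interval of the main value, 80 outside it, and 1 of a called ratio changed sign; of 1410 levels 1210 lay within the interval and 200 outside. Depth limits the rare genes: Nqo1 and Srxn1 had 52 and 66 UMIs in the kept cells at 24 h. No paired analysis was possible because each mouse gave 1 sample at 1 time and the mice of a group were pooled.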

Other observations

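Among 122 further genes in 10 lists of antioxidant and iron pathways, fixed with earlier results known, 22 of 539 gene and class pairs were at least 2-fold higher and 15 lower at 24 h (2.48% and 5.31% over all genes), and 5 higher and 4 lower of 565 at 3 d (2.87% and 1.15%). The genes named are those with the largest ratios at 24 h on at least 100 UMIs, up to 4 in a list; no gene of the heme and lipid peroxidation lists met this. In endothelial cells Lcn2, which binds iron-carrying siderophores, went from 2.87 to 141 CPM (log2 ratio 5.62, 4 and 181 UMIs), with 3.29 at 3 d (77 UMIs). Maff, a partner of NRF2, went from 25.1 to 51.5 CPM there at 24 h (1.04). In astrocytes Idh2, a mitochondrial source of NADPH, went from 86.3 to 181 CPM (1.07), while Bmp6, which in other tissues drives the iron hormone hepcidin, went from 29.0 to 4.57 (-2.67), with -1.29 at 3 d. Cp, the copper oxidase that helps export iron, went from 521 to 1212 CPM in pericytes (1.22), Gstp1, a glutathione transferase, from 193 to 488 in oligodendrocytes (1.34), and Glrx, a glutaredoxin, from 12.4 to 31.5 in microglia (1.35). Higher ratios were also found for Gsto1 (1.18), Slc39a14 (1.29) and Slc11a2 (1.05) in astrocytes, Gstt1 in pericytes (1.10), Pon2 in oligodendrocytes (1.20) and Txnip in endothelial cells (1.21) and pericytes (1.07). In neuroblasts Trf, transferrin, had a ratio of -1.74 (211 and 11 UMIs in control and at 24 h). There Slc25a28, a mitochondrial iron carrier, had -1.40 (106 and 7) and Nfs1, which starts iron-sulfur cluster assembly, -1.10 (160 and 13). Of the listed genes in neuroblasts 7 of 87 were at least 2-fold lower at 24 h, beside 990 of 11488 over all genes. In pericytes Prdx6, a peroxiredoxin, had -1.09. Neuroblasts had 41 and 0 called doublets in control and at 24 h. The 10 astrocyte markers summed to 794.5 and 168 CPM in pericytes at these times (10 and 7 found; Slc1a2 the most abundant; Aqp4, Gjb6 and Acsbg1 at 0 at 24 h), with 4 and 0 called doublets. The part of transcripts of other classes in the ratios of Trf and Prdx6 was not tested. By list, the higher and lower pairs at 24 h were 8 and 1 of 89 for glutathione, 3 and 3 of 89 for thioredoxin, 3 and 3 of 26 for iron uptake, 2 and 1 of 54 for NRF2 control, 2 and 2 of 67 for iron storage, 1 and 1 of 18 for iron export, 1 and 2 of 80 for heme, 1 and 0 of 42 for superoxide and peroxide removal, 1 and 1 of 40 for NADPH, and 0 and 1 of 34 for lipid peroxidation.

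Genes that respond to dissociation also differed between the libraries: of 70 pairs 6 were higher and 11 lower at 24 h (2.48% and 5.31% over all genes), and of 72 pairs 8 were higher and 5 lower at 3 d (2.87% and 1.15%), with Atf3 at -4.01 in astrocytes and Fos at 2.91 in oligodendrocytes at 24 h. Their part in the values of the 10 genes was not tested.

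In the astrocyte rich in Hmox1, other listed genes were also above the mean of the other 238 astrocytes at its depth: Prdx6 had 83 UMIs (15.6 at the mean), Gsr 12 (0.899) and Taldo1 7 (0.940), while Gstm5 had 5 (11.5) and Gstm1 3 (8.24). These genes were picked after their values were seen.

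Cells kept out of the 6 classes held some of the highest levels. Fibroblasts (9, 2 and 11 cells) measured 3666, 1614 and 3306 CPM of Slc7a11. A deep cluster with markers of microglia and border-associated macrophages (2.56%, 2.78% and 3.49% of kept cells) measured 34.7, 69.1 and 21.2 CPM of Hmox1 and 948, 1928 and 772 of Ftl1; the top 5 of its 34 cells at 24 h held 78.7% of the Hmox1 and 49.9% of the Ftl1 UMIs (26.1% and 17.1% in control). A cluster led by Ecrg4 and hemoglobin genes (2.44%, 2.04% and 2.05%) measured 17.1, 64.9 and 14.8 CPM of Nqo1 on 12, 15 and 13 UMIs, the 15 in 5 of 25 cells. Dividing progenitors made up 4.21%, 2.86% and 3.66%, and a shallow cluster with few markers 7.42%, 2.04% and 3.096%.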
